A study of Mus musculus with 6 samples.

Results

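The mitochondrial respiratory chain and the ATP synthase are built from products of 2 genomes, and the nuclear share of them was read here across 6 RNA sequencing libraries of TM3 cells. Of 54532 genes in the deposited table, 96 protein-coding genes outside the mitochondrial chromosome were taken by name: symbols starting with Nduf, Uqcr, Atp5 or Cox4 to Cox8, the 4 succinate dehydrogenase genes Sdha to Sdhd, and Cyc1 and Cycs. They comprised 36 complex I subunits, 8 complex I assembly factors (Ndufaf genes), 4 subunits of complex II, 9 of complex III, cytochrome c, 20 genes of complex IV and 18 of the ATP synthase.

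Complexes I and II pass electrons from NADH and succinate to ubiquinone, complex III passes them to cytochrome c, and complex IV hands them to oxygen. Complexes I, III and IV pump protons as they do so, and the ATP synthase uses the returning protons to make ATP. Most nuclear-encoded subunits are small accessory proteins that surround a catalytic core, and in Leydig cells the electron transport chain and its membrane potential are known to be needed for steroid production.

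The series asked how A20 overexpression changes gene expression in TM3 cells, an established Leydig cell line from mouse testis. The 3 libraries labelled A20 overexpression were set against 3 labelled overexpression control, with a WT genotype. A20 is the product of Tnfaip3 and edits ubiquitin chains, which dampens NF-kB signalling. The labels do not say how A20 was overexpressed, whether the cells were 1 clone or whether replicates were grown as separate cultures, so p-values measure only the spread between these libraries, which may be technical.

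Total counts ran from 15097570 to 16917979 in the A20 libraries and from 13841287 to 15349354 in the control libraries. Tnfaip3 had 41.0, 33.7 and 43.6 CPM (counts scaled to the library's total) in the A20 libraries, and 30.9, 11.9 and 15.2 CPM in control replicates 1, 2 and 3, so the groups did not overlap. Control replicate 1 stood apart: its log expression correlated at 0.914 to 0.934 with the other 5 libraries, which correlated at 0.958 to 0.987 with one another over 13350 genes. Summed over 9 Leydig cell markers, it had 2162 CPM, against 26.1 to 31.6 CPM in the A20 libraries and 16.5 to 27.5 CPM in control replicates 2 and 3. Of these markers, Hsd3b1, Cyp17a1 and Lhcgr had 532, 1.56 and 7.36 CPM in control replicate 1 and no counts in the other 5 libraries. Hsd17b3 had no counts in any library. The other 5 libraries thus lack defining markers of the labelled cell type, though they hold Gata4 (12.5 to 24.2 CPM) and Star (2.52 to 4.54 CPM). Gata4 and Star had 123 and 497 CPM in control replicate 1. The sum over 5 macrophage markers was 4.43 CPM in control replicate 1, against 20.7 to 39.9 CPM in the A20 libraries and 32.1 to 32.3 CPM in the other controls. Most of each sum was Cd68, with 3.71 CPM in control replicate 1, 19.3 to 38.7 CPM in the A20 libraries and 30.1 to 30.6 CPM in the other controls. Adgre1 and Ptprc were at 0 in all 6 libraries. Single markers of other testis cells also differed there: Clu, listed for Sertoli cells, had 221 CPM, against 9.10 to 13.3 CPM in the A20 libraries and 22.9 and 31.1 CPM in control replicates 2 and 3. Wt1, the other Sertoli marker with counts above a few CPM, had 77.5 CPM in control replicate 1, against 120.2 to 139 CPM in the A20 libraries and 117 and 152 CPM in the other controls, and Sox9 was at 0 in all 6. Of 3 endothelial markers, Cdh5 had 35.05 CPM in control replicate 1 and at most 0.319 CPM elsewhere, while Egfl7 was lowest there with 1.042 CPM, against 3.05 to 4.47 CPM in the A20 libraries and 3.83 and 4.33 CPM in the other controls. Of 3 peritubular myoid markers, Acta2 had 77.6 CPM in control replicate 1, against 13.4 to 27.0 CPM in the A20 libraries and 18.9 and 39.2 CPM in the other controls, and Cnn1 lay within their range. The sum over 5 germ cell markers was 9.58 CPM in control replicate 1, against 8.08 to 12.2 CPM in the A20 libraries and 6.13 to 8.16 CPM in the other controls, with Dazl and Tnp1 at 0. Each comparison is therefore given over all 6 libraries and over the 5 libraries without control replicate 1. Both share 5 libraries, so neither supports the other. In bulk RNA, fewer cells of a type and less RNA per cell cannot be told apart.

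Most of the respiratory chain genes were well expressed in every library. Per length, on the deposited FPKM scale (fragments per kilobase of gene, scaled by the authors to library size), Cox8a and Cox6a1 of complex IV led with means over 6 libraries of 466 and 438 FPKM, followed by Atp5b, the catalytic beta subunit of the ATP synthase, with 401 FPKM. The highest of complex III was Uqcr10 with 184 FPKM, the highest of complex I was the iron-sulfur subunit Ndufs8 with 93.4 FPKM, and the highest of complex II was the membrane anchor Sdhd with 64.1 FPKM. The complex I assembly factors, which build the complex but do not stay in it, were all lower, from 3.30 to 11.9 FPKM. Deposited gene lengths can exceed that of the mRNA, as for Atp5l with 6443 against 544 nucleotides, and FPKM then understates the level.

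**Figure D1:**
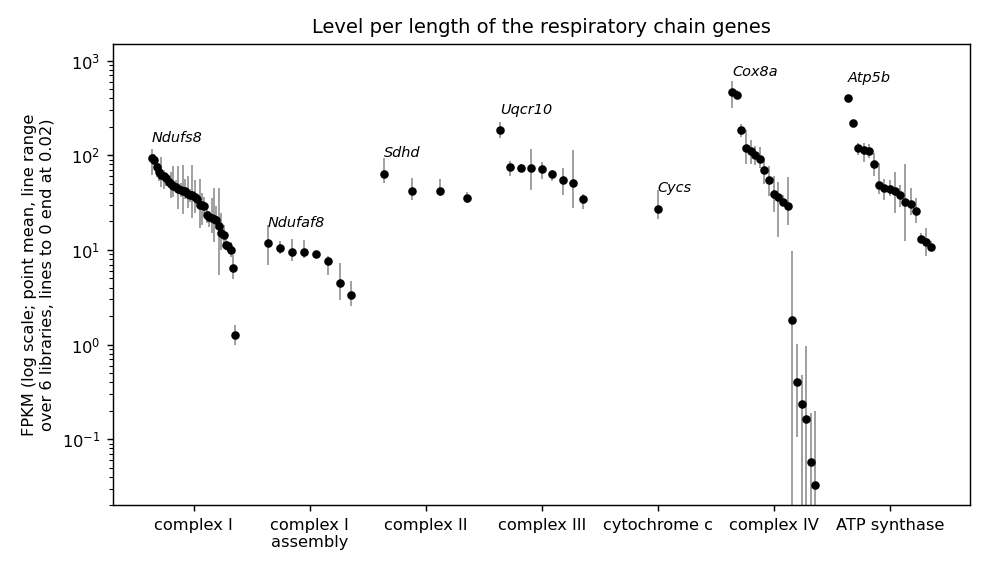
Level of each of the 96 genes per length, by complex. Each point is the mean deposited FPKM over 6 libraries on a log scale and each line the range, lines to 0 ending at 0.02; genes listed at 0 in every library are not drawn. The named gene is the highest of its group, from 466 FPKM for Cox8a to 11.9 FPKM for Ndufaf8, and 6 complex IV genes lie under 2 FPKM.

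Complex IV is the complex with most tissue-restricted isoforms, and their levels separated clearly. Cox4i1, the common form of subunit IV, averaged 185 FPKM, against 0.0578 FPKM for Cox4i2, the form known from lung. Cox6b1 averaged 118 FPKM, against 0.234 FPKM for its testis form Cox6b2. Ndufa4, now counted with complex IV, averaged 101 FPKM, against 0.400 FPKM for Ndufa4l2, its hypoxia-induced relative.

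The germ cell and muscle forms were likewise near 0. Cox8c, a testis form, had no counts in any library, which allows up to 0.177 to 0.217 CPM (3 counts, counting error only). Cox8b, the muscle form of Cox8a, had 1 count in all 6 libraries together, in control replicate 3. Cox7b2, a testis form of Cox7b, had 9 counts in control replicate 1 and none elsewhere.

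Cox7a1, the heart and muscle form of subunit VIIa, had 0.296, 0.0639 and 0.0662 CPM in the A20 libraries, and 5.86, 0 and 0.217 CPM in control replicates 1, 2 and 3. Its counts thus came almost wholly from the library in which Leydig cell markers, Cdh5 and Acta2 were high, and their part in the result was not tested. Its common partner Cox7a2 averaged 69.7 FPKM. These isoforms, with Cox4i2, Cox6b2 and Ndufa4l2, did not reach the expression filter, and neither did a second Atp5o identifier with no counts, which left 88 of the 96 genes tested in both comparisons.

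The muscle form Cox6a2 was the exception among the restricted isoforms, with a mean of 36.5 FPKM. It had 16.6, 34.7 and 26.3 CPM in the A20 libraries, and 10.4, 26.5 and 33.2 CPM in control replicates 1, 2 and 3. The groups overlapped widely, and the lowest library was control replicate 1. Cox6a1, its ubiquitous partner, had 289.5, 318 and 285 CPM in the A20 libraries, and 336, 284 and 343 CPM in the controls, which also overlapped.

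Control replicate 1 held the largest share of respiratory chain mRNA of the 6 libraries. It lay above all 5 other libraries for 68 of the 88 genes tested (77.3%), within their range for 17 and below it for 3, with a median log2 ratio to their mean of 0.54. Over all 13350 genes tested it lay above the others for 40.7%, with a median log2 ratio of 0.14. The CPM of all 96 genes summed to 8547 to 9356 in the A20 libraries, and to 12034, 9051 and 9399 in control replicates 1, 2 and 3.

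By complex, the A20 libraries lay outside control replicates 2 and 3 only for complex IV and cytochrome c. Complex IV summed to 1406 to 1688 CPM in the A20 libraries, against 2222, 1759 and 1862 CPM in control replicates 1, 2 and 3. Cytochrome c, the soluble carrier encoded by Cycs, had 72.6 to 79.3 CPM in the A20 libraries, against 165, 85.2 and 89.4 CPM in the controls. For complexes I, II and III, the assembly factors and the ATP synthase, A20 sums overlapped those of control replicates 2 and 3 and lay below control replicate 1.

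**Figure D2:**
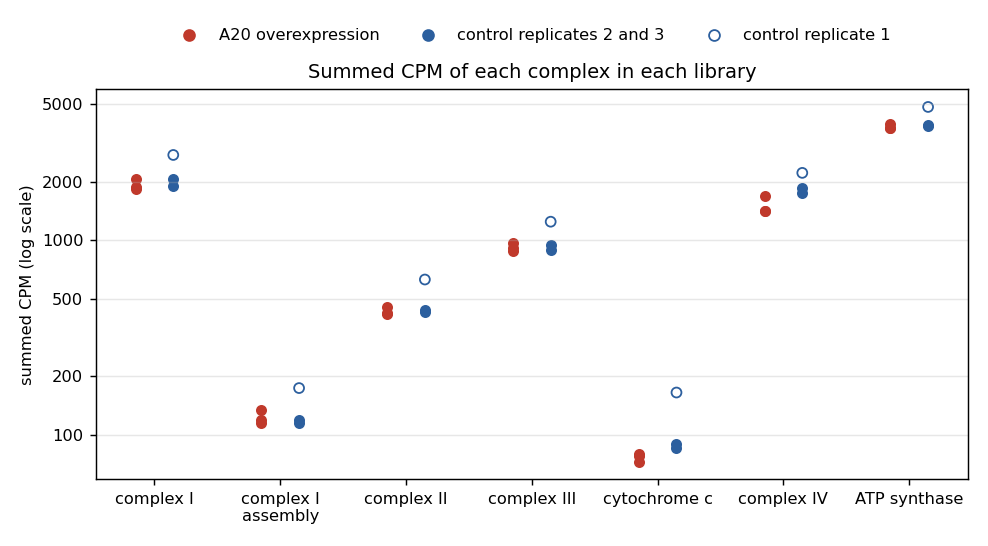
Summed CPM of the genes of each complex in each library, on a log scale, with A20 overexpression left of control. Control replicate 1, the open circle, is highest in every group, and the A20 points lie below both other controls for complex IV (1406 to 1688 against 1759 and 1862 CPM) and cytochrome c.

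Over all 6 libraries no respiratory chain gene passed edgeR's quasi-likelihood test at an adjusted p of 0.05, where 0.00749% of the 13350 genes tested were called higher and 0.00749% lower. At an unadjusted p under 0.05 there were 1 higher and 29 lower of the 88, against 4.19% higher and 5.86% lower of all genes. The groups did not overlap for 1 gene higher and 27 lower in A20, against 7.62% and 9.27% of all genes. The median log2 fold change of the 88 was -0.22, with 66 below 0, and that of all genes was -0.03. The smallest adjusted p in edgeR was 0.175, for Atp5mpl. DESeq2 called 9 lower on the same libraries, where it called 0.861% of all genes lower, and limma-voom called 0 of all genes lower.

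Over the 5 libraries without control replicate 1, 11 of the 88 genes fell in A20 cells and 0 rose, where edgeR called 2.68% of the 13658 genes tested lower and 1.92% higher. DESeq2 called 13 lower and 1 higher, against 3.59% and 2.91% of all genes, and limma-voom 10 lower and 0 higher, against 2.26% and 1.54%. The 11 were 3 accessory subunits of complex I (Ndufa12, Ndufa3, Ndufa5), 1 of complex III (Uqcrb), 4 of complex IV (Cox6c, Cox7b, Cox7c, Cox8a) and 3 small membrane subunits of the ATP synthase (Atp5mpl, Atp5l, Atp5k). At an unadjusted p under 0.05 there were 3 higher and 27 lower, against 10.4% and 11.2% of all genes, and groups did not overlap for 11 higher and 28 lower, against 20.7% and 17.2%. The median log2 fold change of the 88 was -0.10, with 54 below 0, and that of all genes was -0.0028.

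The number that passed depended on single libraries. Without A20 replicate 1, 2 or 3 in turn it was 3, 5 and 4 lower, where 0.693%, 0.819% and 0.859% of all genes were lower. Without control replicate 2 it was 8, of which 5 were among the 11, against 2.25% of all genes. Without control replicate 3 it was 20 lower, including all 11, against 7.9% of all genes, and 4 higher (Atp5d, Ndufc2, Ndufs7, Uqcrc1), against 9% of all genes. In both the lone control was assumed to vary like the A20 libraries. Atp5mpl and Ndufa12 passed in each of the 13 other settings tried on the 5 libraries. Atp5k also passed in every fit without an A20 replicate. Among these fits, Cox6c and Cox8a passed only without A20 replicate 2, and Atp5l only without A20 replicate 3. Ndufa3, Ndufa5, Uqcrb, Cox7b and Cox7c passed in none of these fits.

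Control replicate 1 lay above the other 5 libraries for 9 of the 11, as it did for 77.3% of the 88 genes tested, and within their range for Atp5l and Cox8a. Over the same 5 libraries 1 marker of another cell type passed as well: Clu had 9.10, 13.3 and 11.1 CPM in the A20 libraries, and 221, 22.9 and 31.1 CPM in control replicates 1, 2 and 3, 2.47-fold lower in A20 cells (edgeR adjusted p = 0.00288). The other Sertoli marker tested, Wt1, did not pass, nor did any tested marker of the other 5 lists, and the part of Clu-expressing cells in the result was not tested.

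**Figure D3:**
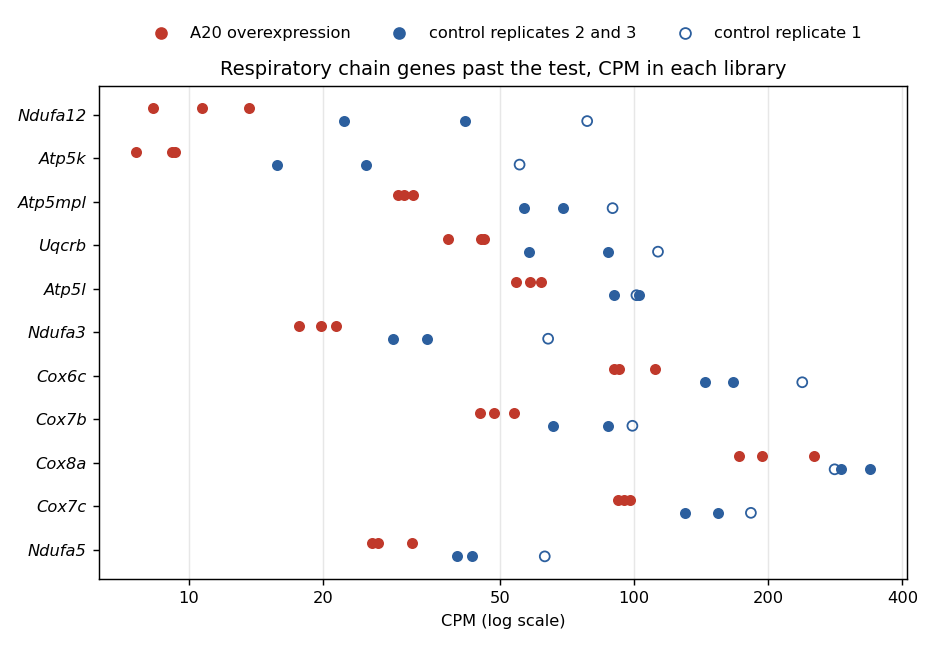
CPM on a log scale in each library for the 11 genes past the test over 5 libraries, with A20 overexpression drawn above control in each row. All A20 points lie left of all control points in every row, from Ndufa12 (8.30 to 13.6 against 22.3 to 78.4 CPM) to Cox8a (172 to 253 against 282 to 338 CPM).

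Within complex I the largest change was in Ndufa12 (ENSMUSG00000020022, GRCm38 chromosome 10, 94198720 to 94221443, plus strand). It is an accessory subunit of the arm that takes up NADH and is related to the assembly factor Ndufaf2. Ndufa12 had 10.7, 8.30 and 13.6 CPM in the A20 libraries, and 78.4, 41.7 and 22.3 CPM in control replicates 1, 2 and 3. The A20 libraries all lay below the controls, which themselves spread widely. Over 5 libraries its log2 fold change was -1.61 ± 0.27 (SE), 3.04-fold lower in A20 cells (edgeR adjusted p = 0.00505), and over 6 it was -2.07 ± 0.40 (adjusted p = 0.202).

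Ndufa3, a small membrane-arm subunit, had 17.7, 19.8 and 21.4 CPM in the A20 libraries, and 64.1, 34.4 and 28.8 CPM in the controls. Ndufa5, a subunit of the matrix arm, had 25.8, 31.7 and 26.6 CPM in the A20 libraries, and 63.0, 43.3 and 40.1 CPM in the controls. Neither gene's groups overlapped, and control replicate 1 was the highest library for both. Ndufa3 was 1.65-fold lower in A20 cells (edgeR adjusted p = 0.0305) and Ndufa5 1.53-fold lower (edgeR adjusted p = 0.0450) over 5 libraries.

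The 7 core subunits, which carry the flavin and iron-sulfur clusters that conduct electrons, had a median log2 fold change of 0.08 over 5 libraries, with 6 above 0 and none past the test. The 29 accessory subunits had a median of -0.24, with 23 below 0, where 6875 of all 13658 genes tested were below 0. The median mRNA was 1623 nucleotides for the core and 763 for the accessory subunits, and role was not tested apart from length. The core subunit furthest up was Ndufs7, with 91.0, 113 and 94.3 CPM in the A20 libraries and 79.4, 56.4 and 84.3 CPM in the controls, a log2 fold change of 0.47 ± 0.17 (SE; edgeR adjusted p = 0.112). Ndufs8, the highest in FPKM, was at 0.04 ± 0.15 (SE).

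Of the 8 assembly factors none passed edgeR's test and none had an unadjusted p under 0.05, and their median log2 fold change was 0.05 over 5 libraries. Ndufaf3, which acts early in assembly, had 14.8, 15.3 and 14.1 CPM in the A20 libraries and 15.4, 9.27 and 14.5 CPM in the controls. Ndufaf5 and Ndufaf8, known from human cells to act on the core subunit Ndufs7, stood at -0.17 ± 0.20 and 0.29 ± 0.29 (log2 fold change, SE). All 3 had overlapping groups.

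Complex II, the only complex with no mitochondrially encoded subunit, had no gene past the test. Sdhd, a membrane anchor, had 65.8, 78.0 and 63.6 CPM in the A20 libraries, and 77.0, 107 and 81.9 CPM in the controls. Sdhb, the iron-sulfur subunit, had 86.1, 101 and 94.8 CPM in the A20 libraries, and 144, 74.9 and 76.1 CPM in the controls. Sdhd lay below control replicates 2 and 3 in all A20 libraries and Sdhb lay above them, with log2 fold changes of -0.49 ± 0.16 and 0.28 ± 0.14 over 5 libraries (SE; edgeR adjusted p = 0.0894 and 0.268). With control replicate 1 included both overlapped.

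Complex III is given by role. Its 4 core subunits, cytochrome c1, the Rieske protein and both large core proteins, had log2 fold changes of 0.01 to 0.45 over 5 libraries, and its 5 small accessory subunits -0.79 to -0.06. Here too the core had longer messages, with a median mRNA of 1586.5 nucleotides against 535 for the accessory subunits. Role was not tested apart from length. Of the 9, only Uqcrb passed, long known as a ubiquinone-binding protein. Uqcrb had 38.2, 46.0 and 45.4 CPM in the A20 libraries, and 113, 87.3 and 57.9 CPM in the controls, without overlap, and was 1.73-fold lower (edgeR adjusted p = 0.0191).

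Uqcr10, the most abundant of the complex, just missed the threshold with 91.6, 88.5 and 89.4 CPM in the A20 libraries and 136, 123 and 119 CPM in the controls (edgeR adjusted p = 0.0546). The hinge protein Uqcrh had 47.3, 62.4 and 50.2 CPM in the A20 libraries and 102, 80.2 and 70.01 CPM in the controls (edgeR adjusted p = 0.0664). The core protein Uqcrc1 had 154, 158 and 155 CPM in the A20 libraries and 166, 105 and 118 CPM in the controls (edgeR adjusted p = 0.0686). The first 2 did not overlap between groups, while for Uqcrc1 control replicate 1 exceeded the A20 libraries. Cycs had a log2 fold change of -0.23 ± 0.14 over 5 libraries (SE; edgeR adjusted p = 0.354).

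In complex IV, 4 of the 13 genes tested fell over 5 libraries, where edgeR called 2.68% of all genes lower. Complex I and the ATP synthase had 3 each. The median mRNA of the 13 was 659 nucleotides, against 2734 for all genes tested. Cox6c, the most changed of the 4, had 90.0, 112 and 92.3 CPM in the A20 libraries, and 238, 144 and 167 CPM in the controls, 1.62-fold lower over 5 libraries (edgeR adjusted p = 0.0129). Cox7c had 97.8, 95.05 and 91.8 CPM in the A20 libraries, and 183, 155 and 130 CPM in the controls, 1.54-fold lower (edgeR adjusted p = 0.0190). Both are short single-span subunits on the outside of the catalytic core, and neither gene's groups overlapped.

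Cox7b, known from human cells to be needed for assembly of the complex, had 48.5, 53.7 and 45.0 CPM in the A20 libraries, and 99.1, 87.5 and 65.7 CPM in the controls, 1.61-fold lower (edgeR adjusted p = 0.0251). Cox8a, the ubiquitous form of subunit VIII, had 172, 253 and 194 CPM in the A20 libraries, and 282, 291 and 338 CPM in the controls, 1.56-fold lower (edgeR adjusted p = 0.0343). For Cox8a the control libraries were alike and the A20 libraries spread. Of the common partners of restricted isoforms, Ndufa4, Cox6b1 and Cox7a2 had log2 fold changes of -0.42 ± 0.14, -0.46 ± 0.16 and -0.34 ± 0.19, and Cox4i1 and Cox6a1 of 0.18 ± 0.15 and -0.11 ± 0.14, none past the test (SE). Cox7a2l, which links complexes III and IV, was at -0.10 ± 0.19 (SE).

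In the ATP synthase the 3 genes that fell all encode small subunits of the membrane part, where the dimer is held together. Atp5mpl (ENSMUSG00000021290, GRCm38 chromosome 12, 111961375 to 111966977, minus strand), the proteolipid-type subunit of the enzyme, had 31.9, 29.4 and 30.5 CPM in the A20 libraries, and 89.5, 69.4 and 56.7 CPM in the controls. The A20 libraries were close to one another and the lowest control was well above them. Its log2 fold change was -1.08 ± 0.16 (SE) over 5 libraries, 2.12-fold lower (edgeR adjusted p = 0.00102), and -1.20 ± 0.17 (SE) over 6.

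Atp5k, subunit e, had 9.34, 9.20 and 7.62 CPM in the A20 libraries, and 55.3, 25.02 and 15.8 CPM in the controls, 2.41-fold lower over 5 libraries (edgeR adjusted p = 0.00812). Atp5l, subunit g, had 58.5, 54.3 and 61.9 CPM in the A20 libraries, and 101, 103 and 90.2 CPM in the controls, 1.70-fold lower (edgeR adjusted p = 0.00768). These subunits pair in the membrane, and their control spreads differed, wide for Atp5k and narrow for Atp5l. The fourth gene of this kind, Atp5j2 (subunit f), had 67.2, 70.01 and 63.5 CPM in the A20 libraries and 129, 76.4 and 115 CPM in the controls (edgeR adjusted p = 0.0574).

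The catalytic head, central stalk and c ring lay near 0. The 5 genes of the catalytic head and central stalk had a median log2 fold change of 0.02 over 5 libraries and the 3 c-ring genes 0.03, and none passed. Their median mRNA was 1410 and 731 nucleotides, against 578 for the small membrane subunits. Atp5b had 1713, 1701 and 1714 CPM in the A20 libraries, and 1830, 1707 and 1595 CPM in the controls, a log2 fold change of 0.01 ± 0.14 (SE). The peripheral stalk genes had a median of -0.18 over the 4 tested, and they were split. Atp5h and Atp5j were at -0.39 ± 0.14 and -0.41 ± 0.14 (SE; edgeR adjusted p = 0.117 and 0.107), and their groups did not overlap. Atp5f1 and Atp5o were at 0.02 ± 0.14 and 0.12 ± 0.17 (SE), and their groups overlapped.

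**Figure D4:**
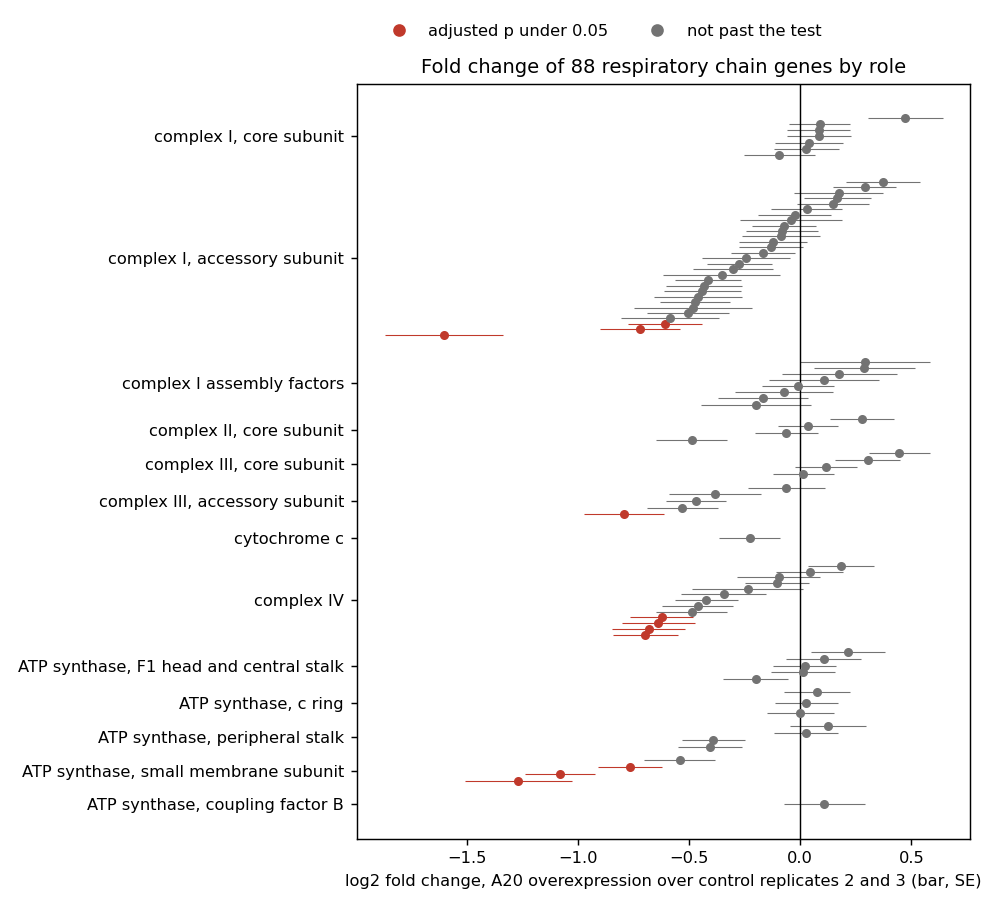
Log2 fold change, A20 overexpression over control replicates 2 and 3, of the 88 genes tested, by role; each point is 1 gene and each bar its standard error. Red points passed at an adjusted p of 0.05, from -1.61 for Ndufa12 to -0.61 for Ndufa5, and all sit in the rows of accessory or small membrane subunits and of complex IV.

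The genes that fell had short messages. Their mRNA, taken as 1 GENCODE transcript a gene, ran from 371 to 1110 nucleotides with a median of 550, against a median of 1005 for the 77 that did not pass, and they encode proteins of 58 to 145 residues. Of the 47 respiratory chain genes tested with an mRNA under 1000 nucleotides, 9 fell over 5 libraries. Of all 661 protein-coding genes with an mRNA under 1000 nucleotides 6.35% fell and 1.51% rose, against 2.16% and 2.18% of all 11379 protein-coding genes.

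Under 600 nucleotides the share that fell was 35.3% of 17 respiratory chain genes, against 15% of 113 other protein-coding genes. The Spearman correlation of log2 fold change with mRNA length was 0.41 across the 88 genes and with coding length 0.60, against -0.01 and 0.03 across 11377 protein-coding genes with an annotated transcript. Genes are not independent replicates, and all points share the same 5 libraries. With offsets for the deposited gene length, 6 genes fell, 5 of them among the 11 (Atp5k, Atp5l, Atp5mpl, Cox6c, Ndufa12), against 2.45% of all genes. With offsets for transcript length and GC content, chosen after the data were seen, 8 fell, 7 of them among the 11, and 2 rose (Ndufc2 and Ndufs7), against 4.52% and 3.81% of all genes. The part of message length in the result was not otherwise tested.

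**Figure D5:**
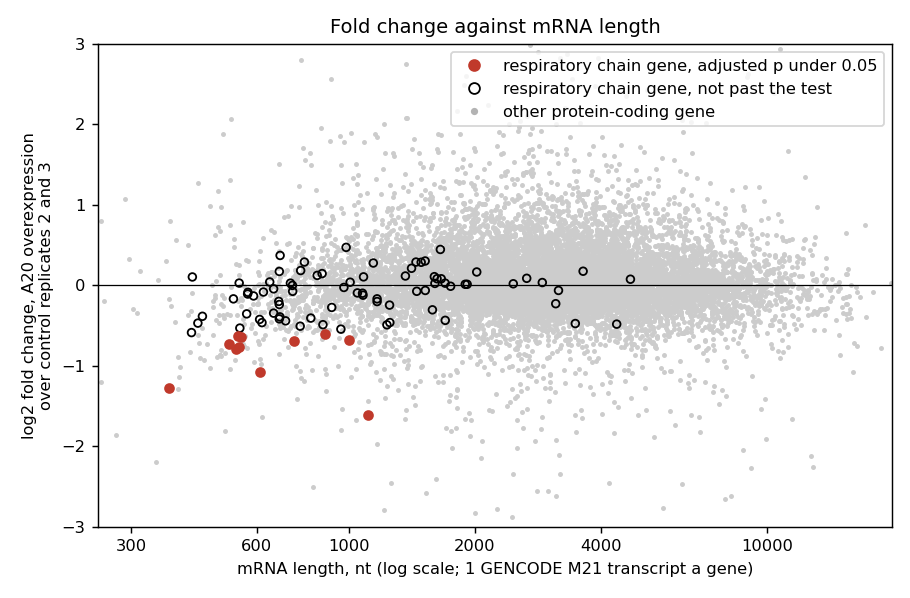
Log2 fold change over 5 libraries (A20 overexpression over control replicates 2 and 3) against mRNA length on a log scale, for respiratory chain genes (red, past the test; open, not) and other protein-coding genes (grey); 48 genes lie outside the axes. The 11 red points lie between 371 and 1110 nucleotides, all below 0, and grey points under 600 nucleotides have a median of -0.29.

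Some of these genes share sequence with other loci. Atp5l has 9 copies of at least 95% identity in the annotation, whose counts came to 27.5% to 35.9% of its own in the A20 libraries and 22.8% to 33.4% in the controls, so how reads were split affects its level. For Uqcrb the copies had 5.00% to 9.89% of its count in the A20 libraries and 3.92% to 5.75% in the controls, and for Cox7c and Atp5k at most 1.39% in any library. Exons of Cox6c share 250 bases with Vps13b on the opposite strand, which averaged 1291 counts a library against 2117 for Cox6c, and the strand setting of the counting is not stated. Uqcrb, Atp5l and Ndufa3 share 50, 133 and 4 exonic bases with Gm10767, Gm30934 and Tfpt in the same way. Of the peripheral stalk genes, Atp5j shares 397 with Gabpa (1819 counts a library against 1481) and Atp5f1 337 with Wdr77 (448.5 against 2779). For Atp5h, 3 copies had 19.06% to 23.21% of its count in the A20 libraries and 14.32% to 22.84% in the controls. The copy of Atp5o had at most 3.94% in any library.

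Promoters were read because genes of this group are known to carry sites for NRF1 and for ETS and YY1 family factors. RefSeq start sites on GRCm38.p6 were matched for 77 of the 96 genes, 8 of the 11 that fell among them. The NRF1 palindrome, the capitals in the Atp5k sequence printed next, was in the 300 bases around the start (250 before, 50 after) of 9.09% of the 77, against 1.07% of all 27025 genes with an entry and 2.46% of 9095 protein-coding genes tested over 5 libraries. Its form with any base at the sixth place, which includes the palindrome, was in 24.68%, against 5.19% and 12.2%.

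The ETS letters CCGGAAG were in 23.38% of the 77 genes, against 9.93% of all genes and 21.14% of those tested. The YY1 letters AAGATGG were in 15.58%, against 7.28% and 8.62%, and the longer YY1 element that contains them in 6.49%, against 0.75% and 1.95%. Both strands were searched. Of the 8 genes that fell and were matched, these motifs in the same order were in 1, 2, 3, 2 and 0.

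The 250 bases before the RefSeq start are shown for the 2 of these genes with an NRF1-type match. They are also shown for Ndufa12, the gene with the largest change, which had none of these motifs around that start. For Ndufa12 and Ndufa5 the stretch shown lies inside the deposited gene span (94198720 to 94221443 and 24518666 to 24528013). The bases before the deposited gene start were therefore not searched for Ndufa12 or Ndufa5. Capitals mark the NRF1-type match, which in Ndufa5 is the form with the free base. Atp5k lies at chr5:108434400-108434649, minus strand, Ndufa5 at chr6:24527691-24527940, minus strand, the outer of its 2 starts, and Ndufa12 at chr10:94198785-94199034, plus strand, each 5′ to 3′ along the gene.
Atp5k: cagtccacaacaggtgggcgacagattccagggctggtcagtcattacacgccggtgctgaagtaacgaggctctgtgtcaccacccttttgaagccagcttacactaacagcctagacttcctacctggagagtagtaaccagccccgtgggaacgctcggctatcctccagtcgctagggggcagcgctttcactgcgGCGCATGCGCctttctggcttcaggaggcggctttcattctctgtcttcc
Ndufa5: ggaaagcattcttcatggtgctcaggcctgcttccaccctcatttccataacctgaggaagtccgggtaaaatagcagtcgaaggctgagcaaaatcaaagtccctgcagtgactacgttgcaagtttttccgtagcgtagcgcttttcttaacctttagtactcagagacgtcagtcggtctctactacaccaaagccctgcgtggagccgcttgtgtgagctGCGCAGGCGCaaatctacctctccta
Ndufa12: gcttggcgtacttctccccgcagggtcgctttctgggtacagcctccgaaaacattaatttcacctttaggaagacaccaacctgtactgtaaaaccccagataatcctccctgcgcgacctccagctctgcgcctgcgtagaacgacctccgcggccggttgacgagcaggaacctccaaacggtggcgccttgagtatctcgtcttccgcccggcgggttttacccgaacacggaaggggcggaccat

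Genes that act beside the chain were mostly level with all genes. Of 40 further assembly factors tested, 16 genes of the TCA cycle and 18 of ubiquinone synthesis or electron supply to it, 0 passed in either direction in edgeR over 5 libraries, with median log2 fold changes of 0.04, 0.09 and 0.10. At an unadjusted p under 0.05 there were 7 higher and 3 lower, 1 and 1, and 0 in these 3 lists, against 10.4% and 11.2% of all genes. DESeq2 called 1 higher and 1 lower among the assembly factors (Taco1 higher, Cox19 lower), against 2.91% and 3.59% of all genes, and limma-voom 0. Of 9 partners of the ATP synthase, 1 fell, where edgeR called 2.68% of all genes lower. It was Usmg5, which encodes the small membrane subunit DAPIT and lies outside the naming rule. Usmg5 had 60.6, 56.8 and 56.9 CPM in the A20 libraries, and 89.8, 71.2 and 106 CPM in the controls, without overlap, 1.55-fold lower over 5 libraries (edgeR adjusted p = 0.0295).

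Of 21 regulators of respiratory gene transcription and mitochondrial DNA tested, 1 rose over 5 libraries, where edgeR called 1.92% of all genes higher. Twnk, the mitochondrial DNA helicase, had 16.9, 14.8 and 19.4 CPM in the A20 libraries, and 23.2, 4.95 and 8.60 CPM in the controls. It was 2.47-fold higher against control replicates 2 and 3 (edgeR adjusted p = 0.00928), while control replicate 1 had the highest value of all.

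Among the partner subunits encoded by mitochondrial DNA, 3 of 12 tested rose over 5 libraries and 0 fell, against 1.92% and 2.68% of all genes. They were mt-Nd4 of complex I, 1.73-fold higher, mt-Cytb of complex III, 1.77-fold higher, and mt-Nd6 of complex I, 1.68-fold higher (edgeR adjusted p = 0.0154, 0.0168 and 0.0304). mt-Nd4 had 579, 458 and 718 CPM in the A20 libraries, and 1438, 325 and 333 CPM in control replicates 1, 2 and 3. As for Twnk, control replicate 1 lay above every A20 library for all 3, and over 6 libraries 0 of the 116 genes tested in these 6 lists passed in either direction by edgeR, DESeq2 or limma-voom. At an unadjusted p under 0.05 edgeR had 2 of them higher and 10 lower over 6 libraries, against 4.19% and 5.86% of all genes.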

How the data were processed

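RNA of 3 A20-overexpressing and 3 control TM3 libraries was measured, with kit-based mRNA libraries per the labels' protocols. The authors deposited whole-number counts per gene, used as deposited, and FPKM values, used only to compare levels between genes. The submitters' processing notes name GRCm38 (mm10) as the build; which aligner and counter were used, and whether strand was used, is not given in the sources used here. CPM is the count per total count of the library.

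Groups were compared by the quasi-likelihood F test of edgeR 4.0.16 in R 4.3.3. TMM factors were used, low genes were removed by the tool's default filter, the fit was robust, and p-values were adjusted by Benjamini-Hochberg across every gene kept, with 0.05 as threshold. Fold changes set A20 overexpression over control, and a standard error is the log2 change divided by the square root of F. All 6 libraries were fitted, and 5 without control replicate 1. With 2 controls left, precision rests on few libraries. Floors (3 counts) cover counting error only, while standard errors also include the spread between libraries. No molecular identifiers are stated.

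The genes, their roles (from textbook knowledge), the lists and the tests were chosen with earlier results of these data known. Named were all genes past the threshold, up to 3 per complex with the smallest p and the highest in mean FPKM of each complex. Isoform pairs and up to 3 list members past the threshold were also named. Ndufs7, Uqcrc1 and Atp5j2, just outside it, and the tested peripheral stalk genes were added after their values were seen. Alternatives were RLE factors, no filter, DESeq2 1.42.0, limma-voom (limma 3.58.1), a replicate block, length offsets, transcript length with GC offsets, and leaving out each library. Lengths, copies (BLAST 2.17.0) and exon overlaps came from GENCODE M21 in Python 3.11.15, and promoters from RefSeq. Of the 96 genes, 90 had the same coordinates in GENCODE M21. The fit was tested on simulated counts, with 100 genes changed by a log2 of 1 and 100 by a log2 of 2. Over 6 libraries it recovered 38% and 87% of them, and over 5 libraries 88% and 100%. Unchanged genes called numbered 14 over 6 libraries, with 13099 genes run, and 20 over 5, with 13324 run. Genes not called over 6 libraries can thus have changed.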

Additional observations from a re-analysis of the deposited data

How the results depend on the processing

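Over 5 libraries, genes that fell numbered 11 as reported and with RLE factors, 13 without a filter, 13 with DESeq2, 10 with limma-voom, 6 with gene length offsets and 8 with transcript length and GC offsets, a setting chosen after seeing the data. Genes that rose numbered 2 without a filter, 1 with DESeq2 and 2 with transcript length and GC offsets. Over 6 libraries, genes that fell numbered 1 without a filter and 9 with DESeq2. Leaving out a library gave 3 to 20 lower and 0 to 4 higher over 5 libraries, and 0 to 11 lower and 0 higher over 6. The median log2 fold change of the 88 genes ran from -0.30 to -0.10 over 6 libraries less 1, and from -0.17 to -0.06 over 5 less 1. The cause of these changes was not tested. Depth limits only the restricted isoforms at a few counts.

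The deviations of same-numbered libraries correlated at 0.03, 0.11 and -0.04, and those of differently numbered ones at -0.19 to 0.16. With so few libraries these values cannot show whether the replicate numbers were paired. A replicate block left 8 lower over 5 libraries, all among the 11, 6 with length offsets as well, and 0 over 6.

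Over all genes and 6 libraries, 7 rose and 16 fell without a filter, 68 and 115 with DESeq2, 0 and 0 with limma-voom, 2 fell with length offsets and the replicate block, and leaving out a library gave 0 to 262 higher and 0 to 366 lower. Over all genes and 5 libraries, 580 rose and 593 fell without a filter, 398 rose with DESeq2, 406 with the replicate block, 429 with the block and length offsets, and 520 rose and 618 fell with transcript length and GC offsets. Leaving out a library gave 45 to 1290 higher and 93 to 1133 lower.

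The genes that turned in direction there had not passed the test over 6 libraries. Among them, mt-Nd4 turned from below 0 to 0.79 without control replicate 1 (log2 fold change, edgeR adjusted p = 0.0154). In log2 fold change, Sdhb was 0.0031 without a filter, 0.024 with limma-voom, 0.026 with the replicate block, and 0.018 and 0.049 with length offsets without and with the block. In the same order Cox7a2l was 0.015, 0.025, 0.025, 0.079 and 0.12, and 0.10 with transcript length and GC offsets. mt-Nd4 was 0.14 with limma-voom, 0.14 with the block, 0.21 with block and length offsets and 0.17 with transcript length and GC offsets. With length offsets without and with the block, Ndufaf8 was 0.014 and 0.10, and Cox6a1 0.075 in both. Without 1 library, Sdhb ran from -0.15 to 0.28, Cox7a2l from -0.13 to 0.27, mt-Nd4 from -0.49 to 0.79, mt-Cytb from -0.18 to 0.82, mt-Nd6 from -0.089 to 0.75, Ndufaf8 from -0.41 to 0.29, Cox6a2 from -0.24 to 0.48, Cox4i1 from -0.045 to 0.18 and Atp5b from -0.011 to 0.086.

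Over 5 libraries the genes that turned had not passed either. Atp5b was -0.036 and -0.032 with length offsets without and with the block and -0.0090 with transcript length and GC offsets. Cox6a1 was 0.077 in both of those length settings, Cox6a2 0.16 with block and length offsets, and Cox7a2l 0.019 with the block and 0.091 with both. Without 1 library, Atp5b ran from -0.075 to 0.11, Cox6a2 from -0.52 to 0.0087, Cox7a2 from -0.63 to 0.013, Cox7a2l from -0.41 to 0.31, Ndufaf5 from -0.32 to 0.012, Ndufaf8 from -0.050 to 0.74 and Ndufs8 from -0.073 to 0.17.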
